A study of Arabidopsis thaliana with 6 samples.

Results

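The plastid genome of Arabidopsis thaliana encodes, beside its photosynthesis genes, the core of its own RNA polymerase, part of its ribosome and a few enzymes and assembly factors. These housekeeping genes were followed in rosette leaves of a double mutant and of wild-type plants on Affymetrix arrays. A gene was taken as a member if its probe set named it alone, the gene carried a plastid locus tag, and its symbol was that of a ribosomal protein (rps, rpl), a polymerase subunit (rpo), a ycf gene, matK, clpP, accD, ccsA or cemA. This gave 26 genes, each with 1 probe set, out of 69 plastid genes and 13350 genes in all that a probe set names alone. They comprise 4 polymerase genes, 8 genes of the small and 7 of the large ribosomal subunit, and 7 other genes. A further 7 probe sets name both copies of a housekeeping gene, among them rps12 and genes that the plastid genome holds in its inverted repeat; they are described apart.

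The double mutant is altered in AT3G03940 and AT5G18190, which encode the related protein kinases MLK2 and MLK1; the labels call these plants both knockdown and -/-, without naming the alleles. One digit of the second locus is absent in the labels, which here is taken to mean AT5G18190. The wild type is Columbia-0. Both genotypes were grown in pots with 12 h of light, kept well watered and harvested at 21 days, with 3 arrays each. The labels speak of RNA isolated in triplicate and do not say whether an array stands for 1 plant, a pool or a repeat extraction, so p-values rest on array-to-array variation that can be technical. The series title concerns phosphorylation of histone H3 under osmotic stress; no stressed plants were analysed here.

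Plastids transcribe their genome with a bacterial-type polymerase, whose core subunits are encoded by rpoA, rpoB, rpoC1 and rpoC2, and with phage-type polymerases that come from the nucleus. In land plants the photosynthesis genes depend mainly on the bacterial-type enzyme, while many housekeeping genes, the rpoB unit among them, are also or only read by the phage-type one. Most plastid genes lie in units that are transcribed together and then processed, and plastid messages generally lack the long poly(A) tails of nuclear ones. The labels state that labelled cRNA was made by the standard Affymetrix protocol, which primes on poly(A) tails, so the signal of a plastid gene need not follow its total transcript level.

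MLK1 read 3.42, 3.57 and 3.36 on the double mutant arrays, against 7.92, 7.74 and 7.63 on the wild-type arrays (log2), a difference of -4.32 (SE 0.10; limma adjusted p = 2.1e-09). MLK2 is named alone by no probe set and was not analysed here. Of 9 rosette leaf markers 3 were measured: RCA averaged 13.54 ± 0.03 in the double mutant and 12.94 ± 0.05 in the wild type, LHCB4.1 averaged 13.17 ± 0.07 in the double mutant and 12.96 ± 0.08 in the wild type, and LHCB4.3 averaged 7.76 ± 0.16 in the double mutant and 7.21 ± 0.12 in the wild type (log2, SD, n = 3). PYK10, the 1 measured gene of 4 root markers, averaged 11.82 ± 0.03 in the double mutant and 11.31 ± 0.14 in the wild type. No listed flower, seed or senescence marker was named alone by a probe set. Measured here means named alone by a probe set, and 8730 probe sets carried no gene name. The array's 25S ribosomal RNA control read 12.19, 12.08 and 12.32 in the double mutant, against 5.45, 6.81 and 5.53 in the wild type, and its 5S ribosomal RNA control averaged 3.47 ± 0.26 in the double mutant and 4.299 ± 0.25 in the wild type (SD, n = 3). Among the 6 pairs of control probe sets for the ends of actin, GAPDH and ubiquitin messages, the 5′ over 3′ signal of 3 pairs was higher on every double mutant array than on every wild-type array. For 1 ubiquitin pair it was lower on every double mutant array than on every wild-type array, with a mean difference of -0.19. These shifts run with the genotype in the same arrays as the plastid genes, and their part in the results below was not tested. In rosettes measured in bulk, a change in the number of cells of a type and a change in RNA per cell cannot be told apart.

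Most plastid housekeeping genes were higher in the double mutant. Of the 26 genes 17 rose and 2 fell at a limma adjusted p of 0.05, and the other 7 did not pass. Of all 22746 probe sets 38.5% passed, with 19.8% higher and 18.7% lower. The rise was at least 1 on the log2 scale, a doubling of signal, for 12 of the 26, against 4.35% of all probe sets, and none fell by that much, against 2.75%. The median difference of the 26 genes was 0.74, with quartiles of 0.29 and 1.41 and a range of -0.48 to 3.45, while the median over all probe sets was -0.01. The 3 double mutant arrays lay wholly above the 3 wild-type arrays for 18 genes and wholly below them for 1, which was the case for 25.1% and 24.5% of all probe sets. An exact two-sided permutation test reached its smallest possible value with 3 arrays against 3, p = 0.1, for these 19 genes, and so cannot pass 0.05. All but 2 genes read above the median of each array; rpoB and rps14 lay below it on all 6.

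**Figure D1:**
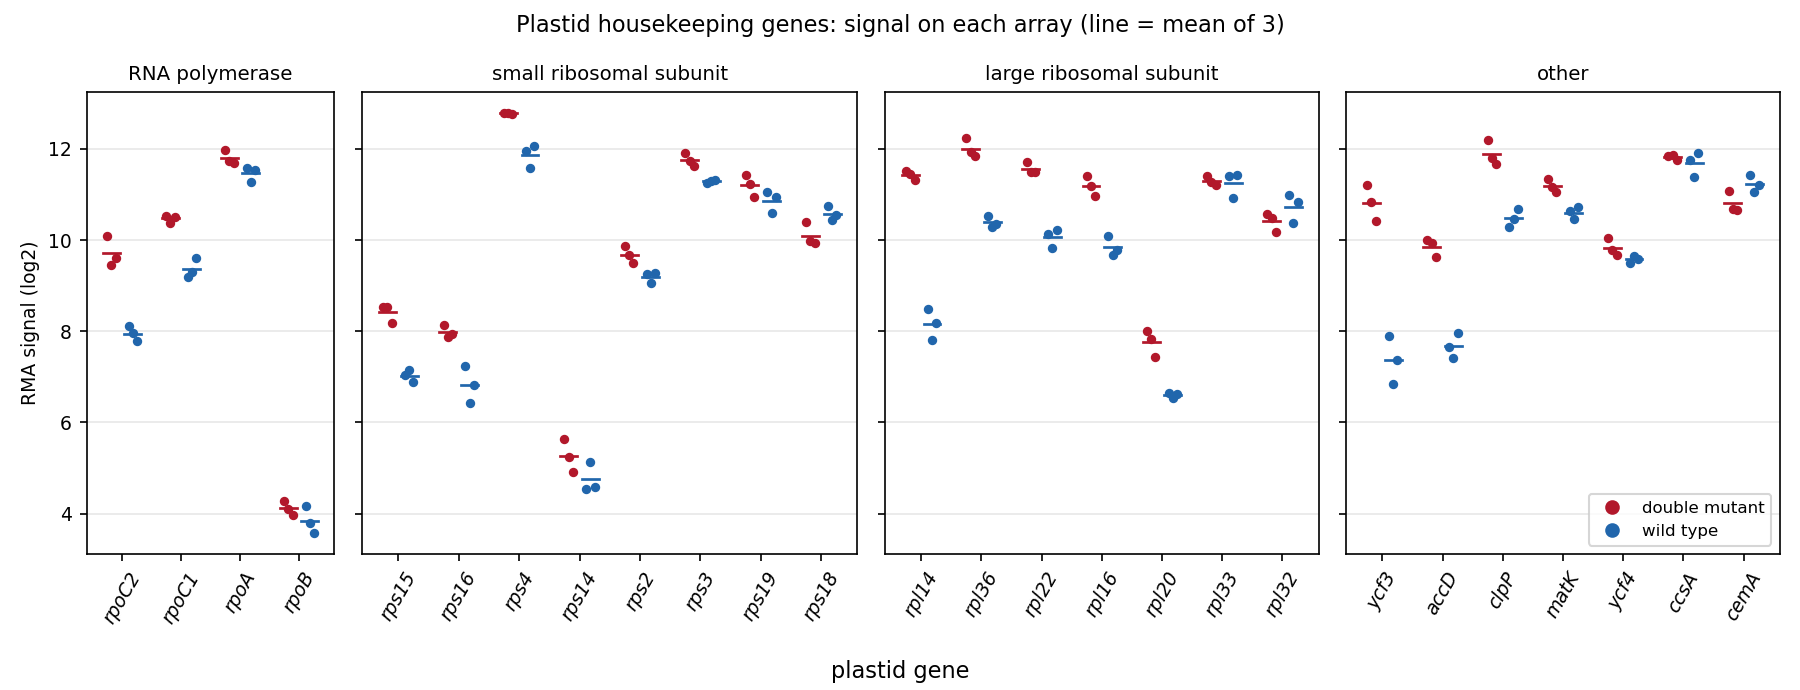
RMA signal on the log2 scale (vertical axis) of the 26 plastid housekeeping genes (horizontal axis), in 4 panels by role. Points are single arrays, double mutant in red on the left and wild type in blue on the right of each gene, and short lines are means of 3; for rpl14 and ycf3 the lowest double mutant array lies 2.83 and 2.53 above the highest wild-type array, while for rpl33 and ccsA the points overlap. Heights of different genes are not comparable, since each rests on its own probes.

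The polymerase genes differed in size of change within one transcription unit. rpoC2, which encodes the beta″ subunit, read 10.09, 9.44 and 9.61 in the double mutant, against 8.11, 7.96 and 7.78 in the wild type. rpoC1, for the beta′ subunit, read 10.54, 10.38 and 10.51 in the double mutant, against 9.20, 9.31 and 9.61 in the wild type. All double mutant arrays of both genes lay above all wild-type arrays. The rise was 1.77 for rpoC2 (SE 0.16; limma adjusted p = 6.3e-06), or 3.4-fold with a 95% interval of 2.68 to 4.31, and 1.103 for rpoC1 (SE 0.12). rpoB, the beta subunit gene that opens the same unit, read 4.28, 4.096 and 3.98 in the double mutant, against 4.15, 3.80 and 3.57 in the wild type. All 6 rpoB values lay below the median of their arrays, so its size of change is a weak comparison with rpoC1 and rpoC2. Its groups overlapped and its difference of 0.28 did not pass (limma adjusted p = 0.16), though it did without wild-type replicate 1 (0.43, adjusted p = 0.017). rpoA, the alpha subunit gene at the end of the large ribosomal protein unit, rose by 0.33 (SE 0.11; limma adjusted p = 0.039), with arrays between 11.69 and 11.97 in the double mutant, against 11.29 and 11.57 in the wild type. This call was lost on leaving out double mutant replicate 1 or 2 or wild-type replicate 2 or 3, with adjusted p = 0.16, 0.071, 0.11 and 0.051, and with the arrays centred on the nuclear median (adjusted p = 0.071).

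The small ribosomal subunit, which decodes the message, had 8 measured genes, with 5 higher, 1 lower and 2 that missed the threshold; their median difference was 0.49. rps15 read 8.53, 8.52 and 8.18 in the double mutant, against 7.04, 7.14 and 6.88 in the wild type. rps16 read 8.15, 7.88 and 7.93 in the double mutant, against 7.24, 6.44 and 6.82 in the wild type. Neither gene had an array of one genotype within the range of the other. rps15 rose by 1.39 (SE 0.12; limma adjusted p = 4.7e-06), or 2.62-fold, and rps16 by 1.15 (SE 0.17). rps4, whose product binds early in assembly of the small subunit in bacteria, read 12.79, 12.78 and 12.78 in the double mutant, against 11.97, 11.58 and 12.07 in the wild type, and rose by 0.91 (SE 0.12). Its double mutant arrays had an SD of 0.0059, and the highest signals of any probe set on those arrays were 13.71, 13.63 and 13.66. rps2 and rps3 rose by less, 0.48 (SE 0.11) and 0.47 (SE 0.10). rps14 differed by 0.51 and rps19 by 0.34, with overlapping groups; neither passed (limma adjusted p = 0.059 and 0.087). Both passed without double mutant replicate 3 (adjusted p = 0.02 and 0.034), rps14 also without wild-type replicate 2 (adjusted p = 0.011) and rps19 without wild-type replicate 1 (adjusted p = 0.046).

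rps18 was the only ribosomal protein gene among the members that fell. It read 10.39, 9.99 and 9.93 in the double mutant, against 10.75, 10.44 and 10.54 in the wild type. Its groups were 0.05 apart, and the fall was 0.48 (SE 0.13; limma adjusted p = 0.015), or 1.39-fold. The call was lost without double mutant replicate 2 or 3 or wild-type replicate 1 (adjusted p = 0.069, 0.07 and 0.052).

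Of the 7 genes of the large subunit, which forms the peptide bonds, 5 rose, none fell and 2 did not pass, and the median difference was 1.33. All 5 rises were larger than 1. rpl14 had the largest, with 11.52, 11.45 and 11.33 in the double mutant, against 8.499, 7.80 and 8.18 in the wild type. The rise of 3.27 (SE 0.15; limma adjusted p = 6.9e-08) was 9.67-fold, with a 95% interval of 7.66 to 12.2. rpl36 read 12.23, 11.94 and 11.84 in the double mutant, against 10.53, 10.28 and 10.36 in the wild type. rpl22 read 11.72, 11.51 and 11.49 in the double mutant, against 10.14, 9.83 and 10.23 in the wild type. These genes rose by 1.61 (SE 0.12) and 1.505 (SE 0.12), each with more than 1.2 between the groups of arrays. rpl16 read 11.40, 11.19 and 10.96 in the double mutant, against 10.09, 9.67 and 9.79 in the wild type. rpl20 read 8.01, 7.83 and 7.43 in the double mutant, against 6.65, 6.54 and 6.61 in the wild type. Their rises of 1.33 (SE 0.14) and 1.16 (SE 0.13) also left the groups apart. rpl33 and rpl32 did not pass: rpl33 differed by 0.05 (95% interval -0.25 to 0.34) and rpl32 by -0.33 (95% interval -0.68 to 0.03), with overlapping groups. Without wild-type replicate 2, rpl32 differed by -0.51 and passed (adjusted p = 0.011).

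The 7 other genes serve distinct functions, and 4 rose, 1 fell and 2 did not pass. ycf3, needed to assemble photosystem I, read 11.22, 10.84 and 10.41 in the double mutant, against 7.89, 6.84 and 7.38 in the wild type. It had the largest difference of the 26 genes, 3.45 (SE 0.25; limma adjusted p = 1.5e-06), and also the largest SE. accD, which encodes a subunit of the plastid acetyl-CoA carboxylase of fatty acid synthesis, read 9.995, 9.95 and 9.64 in the double mutant, against 7.66, 7.42 and 7.97 in the wild type. It rose by 2.18 (SE 0.14; limma adjusted p = 8.6e-07), or 4.52-fold with a 95% interval of 3.62 to 5.64. clpP, for a catalytic subunit of the Clp protease of the stroma, read 12.20, 11.81 and 11.67 in the double mutant, against 10.29, 10.47 and 10.68 in the wild type. It rose by 1.41 (SE 0.15), and its groups lay 0.98 apart. matK, a maturase for plastid introns, rose by 0.58 (SE 0.11), with 11.05 to 11.34 in the double mutant and 10.46 to 10.72 in the wild type. The assembly factor gene ycf4 differed by 0.26 (limma adjusted p = 0.092) and ccsA, whose product acts in attaching haem to cytochrome c, by 0.13 (95% interval -0.14 to 0.41). cemA, for a protein of the inner envelope, read 11.09, 10.68 and 10.65 in the double mutant, against 11.42, 11.06 and 11.21 in the wild type. It fell by 0.42 (SE 0.14; limma adjusted p = 0.03) although 1 array of the double mutant lay within the wild-type range, and the call was lost without double mutant replicate 2 or 3 or wild-type replicate 1 or 3 (adjusted p = 0.12, 0.12, 0.098 and 0.06).

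**Figure D2:**
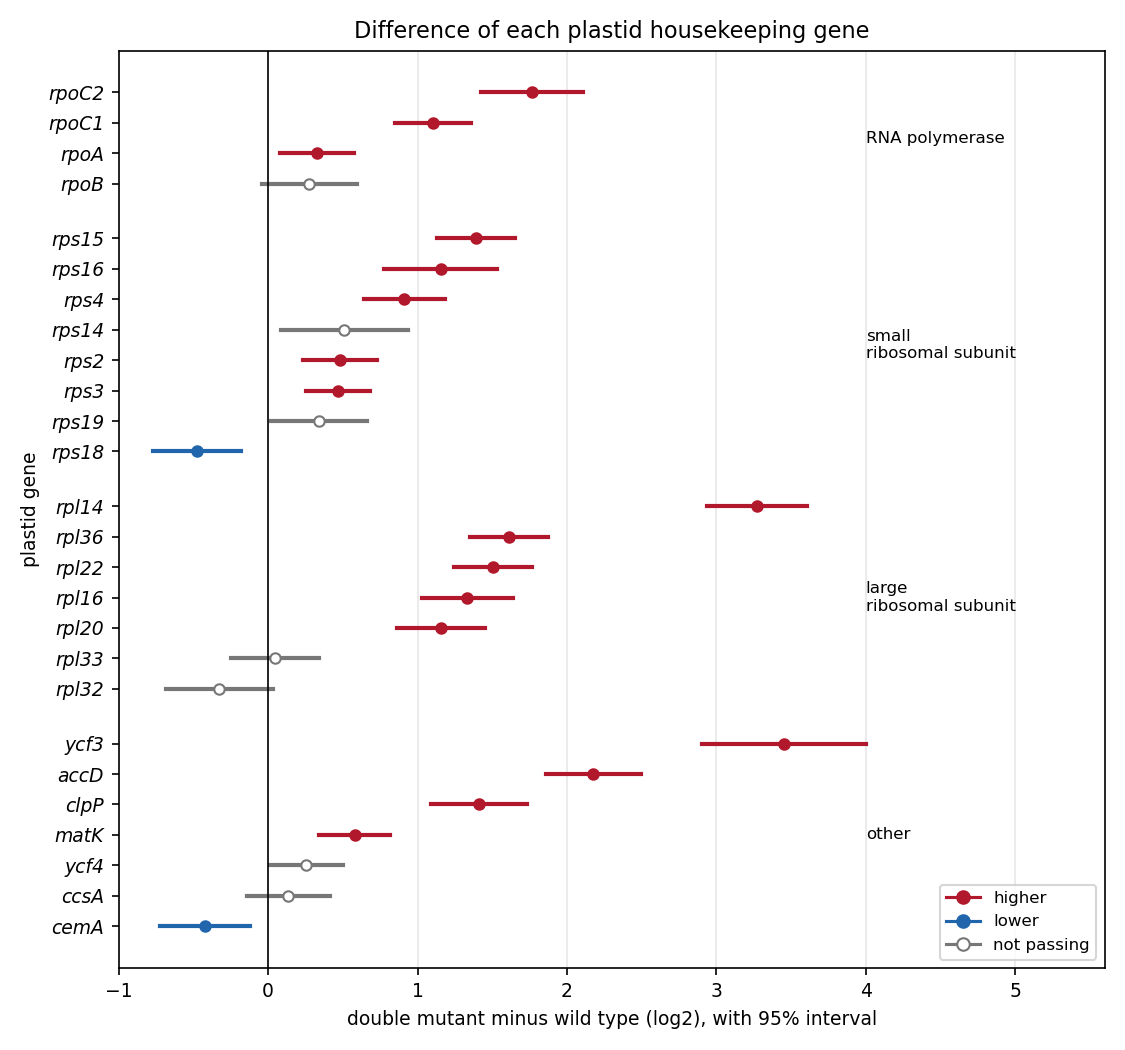
Difference of each plastid housekeeping gene, double mutant minus wild type on the log2 scale (horizontal axis), with 95% intervals from the limma fit; genes run down the vertical axis by role. Filled red points rose (17), filled blue points fell (2) and open grey points did not pass (7); ycf3 and rpl14 lie farthest to the right, at 3.45 and 3.27.

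The median differences by role were 0.72 for the polymerase, 0.49 for the small subunit, 1.33 for the large subunit and 0.58 for the other genes. The ranges of the 4 classes overlap widely, each holding at least 1 gene that did not pass, and the difference between classes was not tested. The 33 plastid photosynthesis genes that a probe set names alone had a median difference of 0.31, with 14 higher and 7 lower, and the 10 genes of the plastid NADH dehydrogenase-like complex a median of 0.66, with 7 higher and 2 lower. Over all probe sets 19.8% rose and 18.7% fell. A difference between housekeeping and other plastid genes was not tested. To set each gene against the other plastid transcripts, the arrays were also centred on the median signal of the 69 plastid genes, which shifts every probe set by -0.94. On that scale 9 of the 26 genes rose and 13 fell, where 2.29% of all probe sets rose and 89.9% fell, most of them nuclear. The 9 were rpoC2, rps15, rpl14, rpl36, rpl22, rpl16, ycf3, accD and clpP, and 4 of them belong to the large subunit. On that scale limma gave every probe set the same SE of 0.18 with 90984 total degrees of freedom, against 10.6 on the deposited scale, so its calls treat the spread as known and carry less weight than their p-values state.

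Probe sets of genes in one unit did not show one size of change. The genes of the large ribosomal protein unit that are described here run from rpl23 through rpl2, rps19, rpl22, rps3, rpl16, rpl14 and rpl36 to rpoA. From its start, the differences were -0.11 for rpl23, 0.34 for rpl2, 0.34 for rps19, 1.505 for rpl22, 0.47 for rps3, 1.33 for rpl16, 3.27 for rpl14, 1.61 for rpl36 and 0.33 for rpoA. Sizes of change varied between neighbours, with no steady trend along the unit. The 7 of these genes that are members averaged 11.18 to 12.00 in the double mutant and 8.16 to 11.47 in the wild type. Each difference comes from its own probe set, and the part of signal level in its size was not tested. In the unit of accD, the first gene rose by 2.18 and the later members ycf4 and cemA differed by 0.26 and -0.42. rpl20 and clpP, which flank the first part of rps12, rose by 1.16 and 1.41. rpl33 and rps18, transcribed as a pair, differed by 0.05 and -0.48.

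Some members beside genes of photosynthesis or the NADH dehydrogenase-like complex had other sizes of change, and some had similar ones. A few pairs are given as examples, without a count over all neighbours. rps2 rose by 0.48 next to atpI, which rose by 2.94 in the same unit. rps14, below the array median on all 6 arrays, differed by 0.51, close to the rise of 0.54 of its neighbour psaB. rps15 rose by 1.39 beside ndhH, which rose by 3.77. ccsA differed by 0.13 and its neighbour ndhD fell by 0.34.

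**Figure D3:**
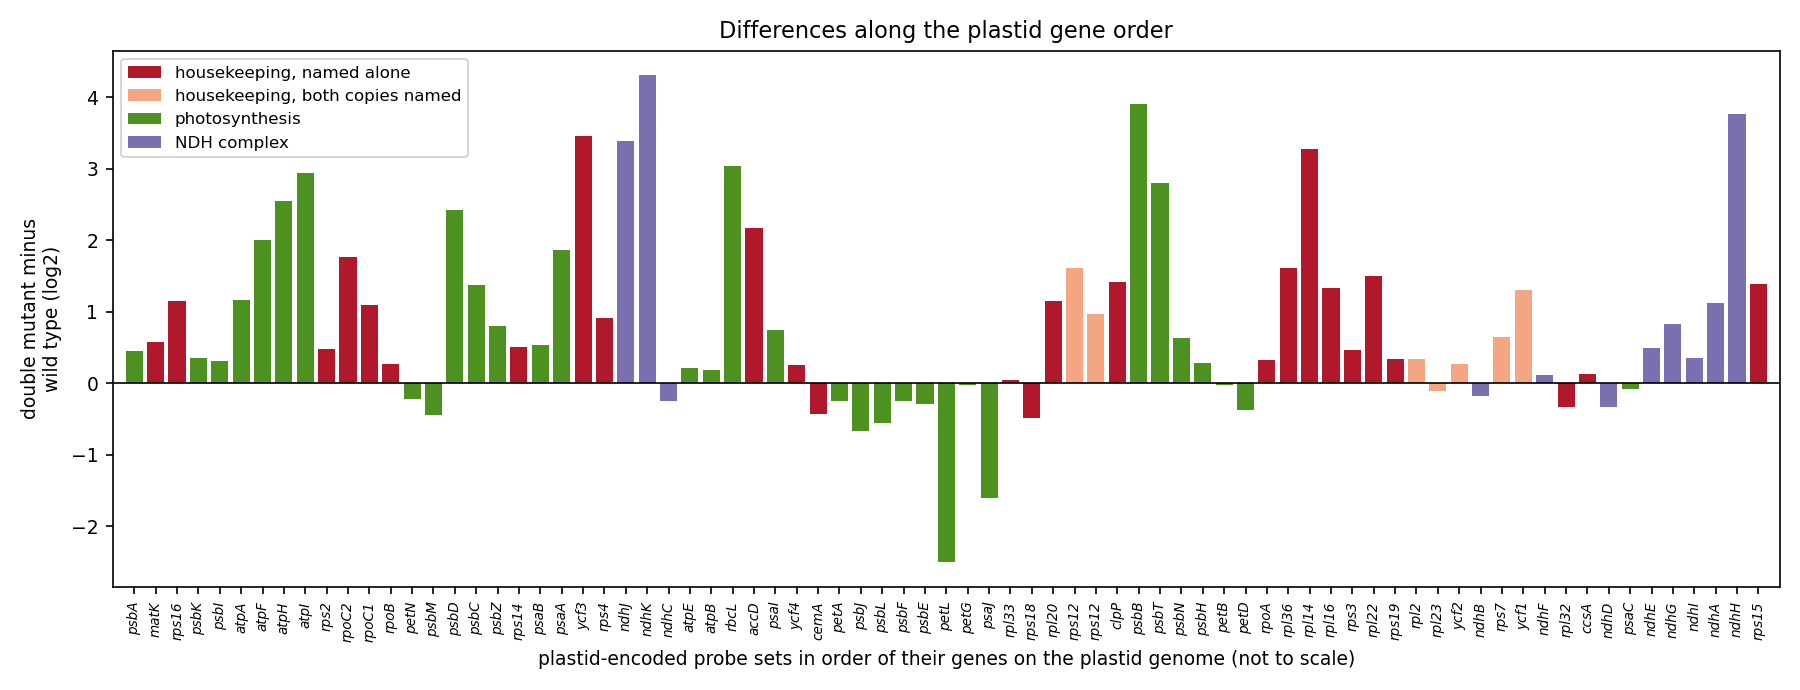
Difference, double mutant minus wild type on the log2 scale (vertical axis), of the 77 plastid-encoded probe sets in the order of their genes on the plastid genome (horizontal axis, not to scale). Each probe set is shown once, also where it names both copies of a gene. rps12 has a bar for each of its probe sets, both placed between rpl20 and clpP. Red bars are housekeeping genes named alone, orange bars those with both copies named, green bars photosynthesis genes and purple bars genes of the NADH dehydrogenase-like complex (NDH); neighbouring bars often differ, as rps2 at 0.48 and atpI at 2.94 do.

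All 5 members with an intron rose, each by at least 1: rpoC1, rps16, rpl16, clpP and ycf3, with a median difference of 1.33. Of the 21 members without an intron 12 rose and 2 fell, 7 of them rising by at least 1, with a median of 0.48. Over all probe sets 19.8% rose, 4.35% rose by at least 1, and 18.7% fell. A difference between members with and without an intron was not tested, and these genes share the same arrays. Among probe sets naming both copies, those of 2 further housekeeping genes with an intron differed: rpl2 did not pass, at 0.34, and rps12 rose. Of the photosynthesis and NADH dehydrogenase-like genes with an intron, atpF rose by 2.01 and ndhA by 1.12, whereas petB differed by -0.02, ndhB by -0.17, and petD fell by 0.37. The signals of ndhB and petD lay below the array median on every array. The position of the probes relative to the introns was not examined.

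The 7 probe sets that name both copies of a gene differed by -0.11 to 1.62; 5 rose and 2 did not pass. Both probe sets of rps12, whose message is joined from separate transcripts, rose, by 1.62 (SE 0.17) and 0.97 (SE 0.26), the smaller with overlapping groups. ycf1, which encodes a large subunit of the protein import complex of the inner envelope, read 11.03, 10.84 and 10.72 in the double mutant, against 9.95, 8.93 and 9.80 in the wild type, and rose by 1.31 (SE 0.22). rps7 rose by 0.65 (SE 0.14) and ycf2, of a motor for protein import, by 0.28 (SE 0.10; limma adjusted p = 0.045), with ycf2 below the array median on all 6 arrays. rpl2 and rpl23 differed by 0.34 and -0.11 and did not pass. With these included, 22 of 33 probe sets rose and 2 fell, where 19.8% of all probe sets rose and 18.7% fell.

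The members also moved together between replicate arrays of one genotype. Double mutant replicate 1 gave the highest double mutant value for 25 of the 26 genes, against 28.5% of all probe sets, and replicate 3 gave the lowest for 23, against 31.4%. In the wild type replicate 2 gave the lowest value for 18 of the 26, against 35.3% of all probe sets. The median signal of the 26 genes was 11.15, 10.76 and 10.58 on the double mutant arrays, against 10.11, 9.75 and 10.01 on the wild-type arrays. The other 43 plastid genes behaved likewise, with 34 highest on double mutant replicate 1 and 29 lowest on wild-type replicate 2. The members thus moved together within a genotype, and the 17 rises are not separate observations. Within each genotype the array with the highest 25S ribosomal RNA control, double mutant replicate 3 and wild-type replicate 2, had the lowest median of these genes. In the wild type the order was inverse on all 3 arrays. In the double mutant it was not, as replicate 1 was above replicate 2 in both the control (12.19 and 12.08) and the median. Between genotypes both were higher in the double mutant, and a link was not tested.

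**Figure D4:**
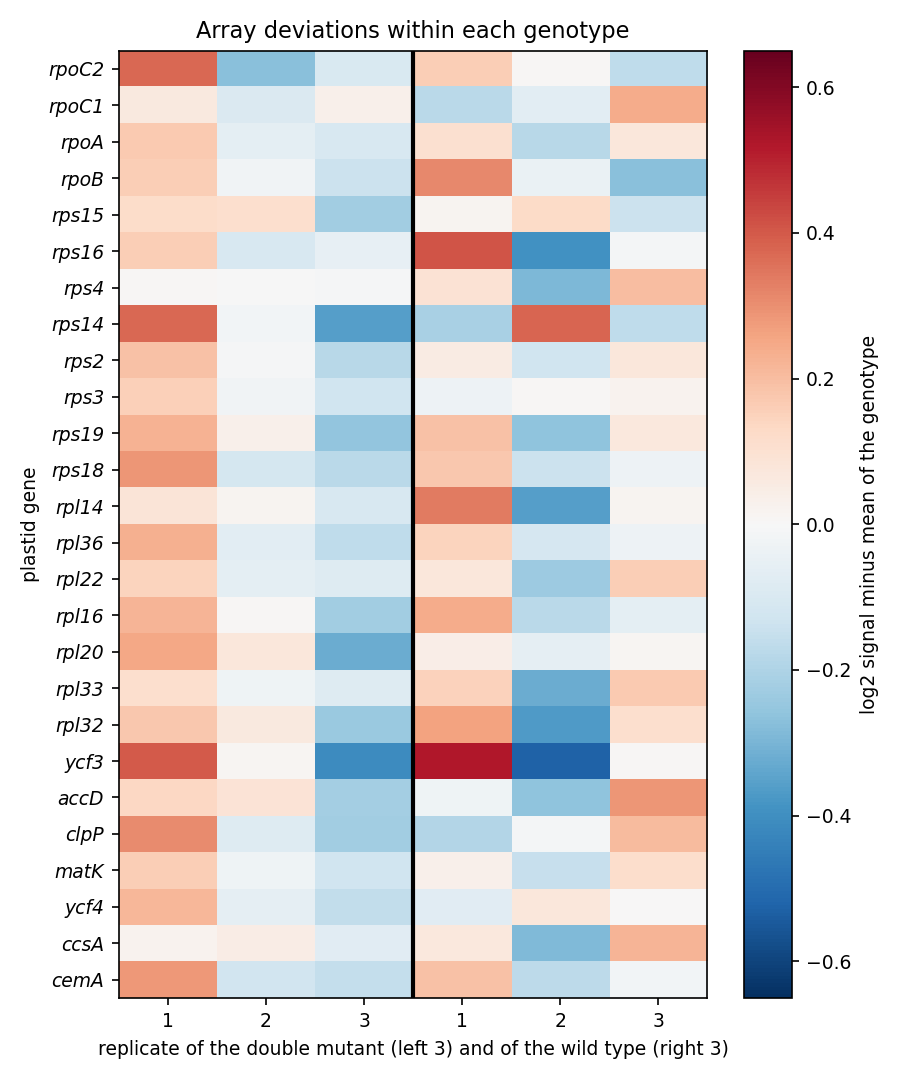
Deviation of each array (horizontal axis, 3 double mutant replicates on the left and 3 wild-type replicates on the right) from the mean of its genotype, on the log2 scale (colour), for the 26 plastid housekeeping genes (vertical axis). The column of double mutant replicate 1 is red or near 0 throughout and that of wild-type replicate 2 mostly blue, as replicate 1 was highest for 25 genes and wild-type replicate 2 lowest for 18.

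Median differences were set beside signal. The 13 genes with the higher mean signal over the 6 arrays had a median difference of 0.47. Of these 8 were higher, 4 of them by at least 1, and 1 was lower. The 13 dimmer genes had a median of 1.15, with 9 higher, 8 of them by at least 1, and 1 lower. Over all probe sets 19.8% rose, 4.35% rose by at least 1, and 18.7% fell. Across the 26 genes the mean signal and the difference had a Pearson correlation of -0.13 and a Spearman correlation of -0.30; the genes share the same arrays, and signals also reflect the probes.

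The nuclear partners of these plastid genes were measured in part. Of 105 nuclear genes listed, 19 are named alone by a probe set, and their median difference was 0.14; 5 of them rose, none fell and 14 missed the threshold, where 19.8% of all probe sets rose. With so few genes measured, the counts of single lists are given as a description. No sigma factor, polymerase-associated protein or acetyl-CoA carboxylase subunit of the lists was named alone by a probe set. Since 8730 probe sets carried no gene name here, signals of these genes may be on the array without having been read. Of the 10 measured nuclear genes for plastid ribosomal proteins 3 rose. AT5G47190 read 10.92, 10.95 and 10.96 in the double mutant, against 9.74, 9.89 and 9.84 in the wild type, a rise of 1.12 (SE 0.09; limma adjusted p = 2.5e-06). AT3G54210 rose by 0.44 (SE 0.09) and AT5G24490 by 0.27 (SE 0.09; limma adjusted p = 0.037). The call of AT5G24490 was lost with the arrays centred on the nuclear median (adjusted p = 0.081), with the replicate block (adjusted p = 0.062), and on leaving out any 1 array other than wild-type replicate 3 (adjusted p of 0.07, 0.1 and 0.12 for double mutant replicates 1, 2 and 3, and of 0.093 and 0.076 for wild-type replicates 1 and 2).

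Of 5 measured nuclear genes of the Clp protease, CLPP4 rose by 0.74 (SE 0.09), with 11.06, 10.85 and 10.82 in the double mutant against 10.20, 10.16 and 10.15 in the wild type, AT1G09130 rose by 0.51 (SE 0.11), and 3 did not pass. CLPP4 and AT5G47190 both lie between AT5G40450 and AT5G55000 on chromosome 5, an interval chosen earlier from these data, in which 451 of 753 measured genes (59.9%) rose; their rise cannot be told apart from that of the interval. The 1 measured phage-type polymerase, AT5G15700, averaged 5.47 ± 0.17 in the double mutant and 5.41 ± 0.22 in the wild type (SD, n = 3; limma adjusted p = 0.76). CAF1, a splicing factor for plastid introns, differed by -0.20 (limma adjusted p = 0.23), and AT1G49380, from the list of partners of the other plastid proteins, by 0.09 (limma adjusted p = 0.58).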

How the data were processed

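Each array came as deposited log2 signals, 1 per probe set, made by the authors with RMA (background correction, quantile normalization between arrays, summary of probes) under R 2.9.0, per the submitters' processing notes. The authors' deposited table adds a limma comparison with log2 differences, p-values, adjusted p-values, and a moderated statistic and log odds score; it served only as an alternative. The log2 values were used as deposited. After removing 64 control probe sets, 22746 of 22810 entered a two-sided limma fit of genotype (lmFit and eBayes, version 3.58.1 in R 4.3.3), adjusted by Benjamini-Hochberg over the whole table and a threshold of 0.05. Single genes were also tested by an exact permutation test over arrays. Gene names follow GEO's annotation of the array. Locus tags, names and gene order are from RefSeq (TAIR10.1), and no coordinates are given. Of the probe sets, 13513 name 1 gene, 503 several and 8730 none here. Transcription units, introns and inverted-repeat genes are textbook assignments. The members, lists and tests were chosen with earlier results of these data known.

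All 26 members are named; values of every array are given for members called with a difference of at least 1 and for the largest statistic in each role, and from each list up to 3 called genes with the smallest adjusted p, or otherwise the one with the largest statistic. rps4, rps18, cemA, rpoB and ycf1 are given by array in addition. Alternatives were a replicate block, a low-signal filter, other variance moderation, other centring, leaving out each array, and probe sets naming both copies. Same-numbered replicates deviated with correlations of -0.08, -0.10 and -0.16 across probe sets, so the numbers were not taken to pair the samples. The fit was also run on 5 simulated tables with independent noise and 200 changed probe sets each. In the data 8757 probe sets were called and the plastid genes moved together, so that run is no check of the calls given here. No scan dates or detection calls were at hand, and a batch effect was not tested. With 3 arrays per genotype, the SE of the members was 0.097 to 0.25. Tables were made with pandas 2.3.3, scipy 1.17.1 and numpy 2.4.6 in Python 3.11.15, and plots with matplotlib 3.10.9.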

Additional observations from a re-analysis of the deposited data

Results flagged for a closer look

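Outside the tested genes, the array's 25S ribosomal RNA control differed by 6.26 on the log2 scale between the double mutant (12.20 ± 0.12) and the wild type (5.93 ± 0.76; SD, n = 3 each), above all wild-type arrays on every double mutant array. Its part in the higher plastid signal was not tested. Groups of 3 arrays are too small for a search for outlying arrays.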

How the results depend on the processing

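Of the 19 called genes 16 kept their direction and their side of the threshold under every alternative run except the centring on plastid genes, and 9 kept them under that centring too; the other 3 were rpoA, rps18 and cemA. The centring alone left 11 of the 19 calls as they were, rps18 and cemA included. Leaving out 1 array gave 16 to 19 higher and 0 to 3 lower genes of the 26, a median difference of 0.70 to 0.82, and 6985 to 8834 called probe sets of 22746. No gene was called lower without double mutant replicate 2 or 3 or wild-type replicate 1, and 1 without wild-type replicate 3. The low-signal filter dropped rpoB and rps14 and gave a median of 1.01. With the arrays centred on the plastid median, 9 genes rose, 13 fell and the median was -0.19; the differences then turned for rpoA (-0.61), rpoB (-0.66), rps4 (-0.025), rps14 (-0.43), rps2 (-0.45), rps3 (-0.47), rps19 (-0.59), rpl33 (-0.89), matK (-0.36), ycf4 (-0.68) and ccsA (-0.80), as this scale subtracts 0.94 from each, and rpoC1, rps16 and rpl20 no longer passed. Of the genes that did not pass, rpl33 was at -0.0013 with the nuclear median and ran from -0.11 to 0.13 on leaving out 1 array, ccsA from -0.011 to 0.24, AT5G15700 from -0.068 to 0.16 and AT1G49380 from -0.020 to 0.19. rps14 passed with the replicate block (adjusted p = 0.036), with other variance moderation (0.046), without double mutant replicate 3 (0.02) and without wild-type replicate 2 (0.011). rps19 passed with other variance moderation (0.038), without double mutant replicate 3 (0.47, adjusted p = 0.034) and without wild-type replicate 1 (0.44, adjusted p = 0.046), and ycf4 with other variance moderation (0.047). rpoB passed without wild-type replicate 1 (0.43, adjusted p = 0.017) and rpl32 was lower without wild-type replicate 2 (-0.51, adjusted p = 0.011). The replicate block called 18 genes higher, 2 lower and 8095 probe sets in all. It was fitted on the whole table, and calls were compared for the 26 members and 8 nuclear list genes. Among these it changed the calls of rps14 and AT5G24490 and no other. With correlations of -0.08 to -0.16 the numbers were not taken to pair the samples, though 3 arrays per genotype cannot settle whether they do. The authors' deposited table gave 17 higher, 2 lower and 8744 called probe sets. No member has a second probe set that names it alone, so that alternative gave no value. rpoB and rps14 lay below the median of all 6 arrays, and whether low signal bears on their differences was not tested.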

Other observations

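Both members that fell lie at the ends of one stretch of the plastid gene order, chosen after its values were seen. From cemA to rps18 there are 11 plastid-encoded probe sets, of which 10 lay below 0, 7 fell and none rose, with a median difference of -0.42. The 2 ends of the stretch are among the 7 by choice. Of all 22746 probe sets 19.8% rose and 18.7% fell. Of the 66 plastid-encoded probe sets outside the stretch 43 rose and 4 fell, with a median of 0.70. Between the 2 housekeeping ends lie genes of the cytochrome b6f complex and of both photosystems, among them petL, which fell by 2.504, and psaJ, which fell by 1.60; rpl33, beside rps18, differed by 0.05. The stretch holds genes of different transcription units and was not tested.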
